A study of Mus musculus with 8 samples.

Results

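The interaction of the genotype label with the time label was examined in NIH3T3, a mouse fibroblast line that grows without limit in culture and is labelled with the Swiss albino strain. The contrast takes the change from 0 h to 2 h in the cells labelled Zmynd11 knockout (KO) and subtracts the same change in the cells labelled WT. All 8 samples of the series entered it, in 4 groups of 2 set by their titles. WT 0 h and KO 0 h were labelled as given no agent, and WT 2 h and KO 2 h as treated for 2 h with 100 units/ml of mouse IFN-β, a recombinant type I interferon. The knockout was made with CRISPR, and the labels give no clone, batch or date. Whether the libraries within a group are separate cultures is not labelled. A p-value here reflects the spread between libraries of a group, shared in part across genes, and that spread could be technical. Group names below are the labels throughout.

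Zmynd11 encodes a chromatin reader of methylated histone H3.3, and its transcript was used to check the labels. The library pair labelled WT 0 h had 123 and 120.4 CPM of Zmynd11 (CPM: reads of a gene relative to the scaled total of its library), and the pair labelled KO 0 h had 137 and 131 CPM. The pair labelled WT 2 h had 3.18 and 3.61 CPM, and the pair labelled KO 2 h had 3.31 and 4.69 CPM. Both 2 h groups were low and both 0 h groups were high, so the level went with the time label and against the genotype label of KO 0 h and WT 2 h. If those labels were exchanged, the contrast would keep its value for every gene, because the KO 0 h and WT 2 h levels enter it with the same sign. With them exchanged, 17 genes were called on the log2 scale and 60 on the linear scale, the same numbers as with the labels as given. What does change is the naming of the single steps, so every direction of a single step below is that of the labels. Interferon genes did not all follow the treatment labels of KO 0 h and WT 2 h. Ifit1 was at 212 CPM in KO 0 h, labelled untreated, and 2.82 in WT 2 h, labelled treated. Gbp9 was the reverse, at 16.4 and 74.6 CPM. Of 127 tested interferon genes, 94 were called higher in KO 0 h than WT 0 h, against 339 of all 12807. For WT 2 h against WT 0 h these counts were 62 and 3853. Which labels are right was not tested, so a step need not be of the genotype or treatment it is named for.

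Across the 8 libraries, gene reads summed to 13671013 to 21299120, and 1 read was worth 0.0460 to 0.0700 CPM. The library labelled KO 0 h replicate 2 had reads for 17498 genes, against 14847 to 15945 in the other 7. Fibroblast markers summed to 30970 to 34640 CPM in the 0 h groups and to 8527 to 9016 CPM in the 2 h groups. Of 45 markers of other cell types, 26 to 38 had a read, most of them in KO 0 h replicate 2, and they summed to 72.2 to 135 CPM. The contrast was fitted to 12807 of the 23304 gene symbols, those that passed a filter on low counts.

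IFN-β binds a cell surface receptor whose kinases activate a transcription factor complex that includes STAT2 and IRF9. The complex enters the nucleus and binds the interferon-stimulated response element (ISRE). The gamma-activated sequence (GAS) is another element through which interferons act. The genes switched on this way include antiviral effectors, sensors of foreign nucleic acid, families of large GTPases that attack the membranes around intracellular pathogens, ubiquitin-like and ADP-ribosylation pathways, chemokines, and the antigen presentation machinery. When 2 conditions each raise such a gene, their joint level can be set beside a sum or beside a product of the single changes, and a gene can lie above the first and below the second.

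The promoters of some genes with an interaction are shown, with matches to 2 sequences that the interferon pathway is known to read. ISRE was searched as GAAANNGAAA and GAS as TTCNNNGAA, on both strands, in RefSeq windows of 300 bases around each gene's start (assembly GRCm38.p6, which is not the build of the counts). Of the 10 genes with a negative interaction on the log2 scale, 5 had such a promoter, 5 of these held an ISRE match and 3 a GAS match. Of the 7 genes with a positive interaction, 5 had a promoter, of which 2 held an ISRE match and 0 a GAS match. Over all 27025 genes of the table the shares were 3.99% for ISRE and 9.55% for GAS. Over the 127 tested genes of the interferon lists, of which 97 had a promoter, the shares were 41.2% and 23.7%. For genes called positive on the linear scale, 12 of 31 promoters held an ISRE match (38.7%) and 7 a GAS match (22.6%). For those called negative, 4 of 13 held an ISRE match (30.8%) and 2 a GAS match (15.4%). The 120 bases before the start are given below, 5′ to 3′ on the gene's strand, for 6 genes with an interaction on the log2 scale and for Ifit1, which had an interaction on the linear scale alone. Every gene shown holds an ISRE match, so they do not stand for the called genes as a whole. Matches are in capitals.
Gm12185, chr11:48927183-48927302, minus strand: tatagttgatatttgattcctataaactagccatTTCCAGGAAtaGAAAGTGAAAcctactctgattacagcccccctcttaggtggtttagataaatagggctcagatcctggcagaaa
Irgm2, chr11:58214857-58214976, plus strand: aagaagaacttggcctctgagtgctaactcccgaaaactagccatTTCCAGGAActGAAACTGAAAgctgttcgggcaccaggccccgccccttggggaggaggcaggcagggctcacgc
Igtp, chr11:58199436-58199555, plus strand: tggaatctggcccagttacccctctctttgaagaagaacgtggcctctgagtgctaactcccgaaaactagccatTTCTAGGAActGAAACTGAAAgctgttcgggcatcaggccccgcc
Irgm1, chr11:48871421-48871540, minus strand: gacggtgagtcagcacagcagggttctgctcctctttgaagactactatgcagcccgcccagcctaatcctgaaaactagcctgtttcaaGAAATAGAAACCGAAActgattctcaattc
Trim12c, chr7:104353350-104353469, minus strand: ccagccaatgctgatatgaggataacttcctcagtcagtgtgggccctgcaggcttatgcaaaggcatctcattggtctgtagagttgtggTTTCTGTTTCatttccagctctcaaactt
Oas3, chr5:120777660-120777779, minus strand: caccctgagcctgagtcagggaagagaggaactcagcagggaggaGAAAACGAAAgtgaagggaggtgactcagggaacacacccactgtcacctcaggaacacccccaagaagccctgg
Ifit1, chr19:34640769-34640888, plus strand: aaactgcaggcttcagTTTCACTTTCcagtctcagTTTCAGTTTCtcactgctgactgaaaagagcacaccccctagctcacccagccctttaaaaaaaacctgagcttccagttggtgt
In Irgm2, Igtp and Gm12185 a GAS match lay directly before an ISRE match. In Irgm2 the ISRE match began 64 bases before the start and the GAS match 75 bases before it. In Igtp these distances were 34 and 45 bases, and in Gm12185 they were 75 and 86 bases. Irgm1 held overlapping ISRE matches that began 30 and 24 bases before the start, and Ifit1 held separate ones at 104 and 85 bases. A match describes the letters and shows no binding.

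On the log2 scale the interaction asks whether the fold change from 0 h to 2 h differs between the genotype labels. It was called for 17 of 12807 genes (0.133%), at a Benjamini-Hochberg adjusted p below 0.05 in edgeR's quasi-likelihood test. The interaction was positive for 7 genes (0.0547%) and negative for 10 (0.0781%). On the linear scale it asks whether the difference in CPM differs, and it was called for 60 genes (0.468%), positive for 40 (0.312%) and negative for 20 (0.156%). Each of these 17 and 60 genes had the same sign in all 16 ways of taking 1 library from each group. These combinations reuse the libraries that gave the calls and add no support. Some genes that were not called, such as Ifit3 in CPM, also kept 1 sign in all 16. On both scales together 11 genes were called, and 7 of these had opposite signs on the 2 scales. An unadjusted p below 0.05 was reached by 1637 genes on the log2 scale and 1622 on the linear scale. The number of calls moved with single libraries. Without the library labelled WT 2 h replicate 1 there were 6 calls on the log2 scale and 37 on the linear scale, and without KO 0 h replicate 1 there were 91 and 171. Without KO 2 h replicate 2 there were 35 and 92, and without KO 0 h replicate 2 there were 30 and 85. Leaving out WT 0 h replicate 2 gave 9 calls on the log2 scale. For the linear scale, leaving out WT 2 h replicate 2 gave 99 and leaving out KO 2 h replicate 1 gave 37.

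The 4 single steps of the design were not of equal size. From 0 h to 2 h, 3853 genes rose in WT (30.1%) and 3838 in KO (30.0%), and 3984 (31.1%) and 3991 (31.2%) fell. Between KO 0 h and WT 0 h, 339 genes (2.65%) were higher and 163 (1.27%) lower, and between KO 2 h and WT 2 h, 204 (1.59%) were higher and 1 (0.00781%) lower. These steps share libraries with each other and with the interaction. The median interaction over all tested genes was -0.01 on the log2 scale and 0.00721 CPM on the linear scale.

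**Figure D1:**
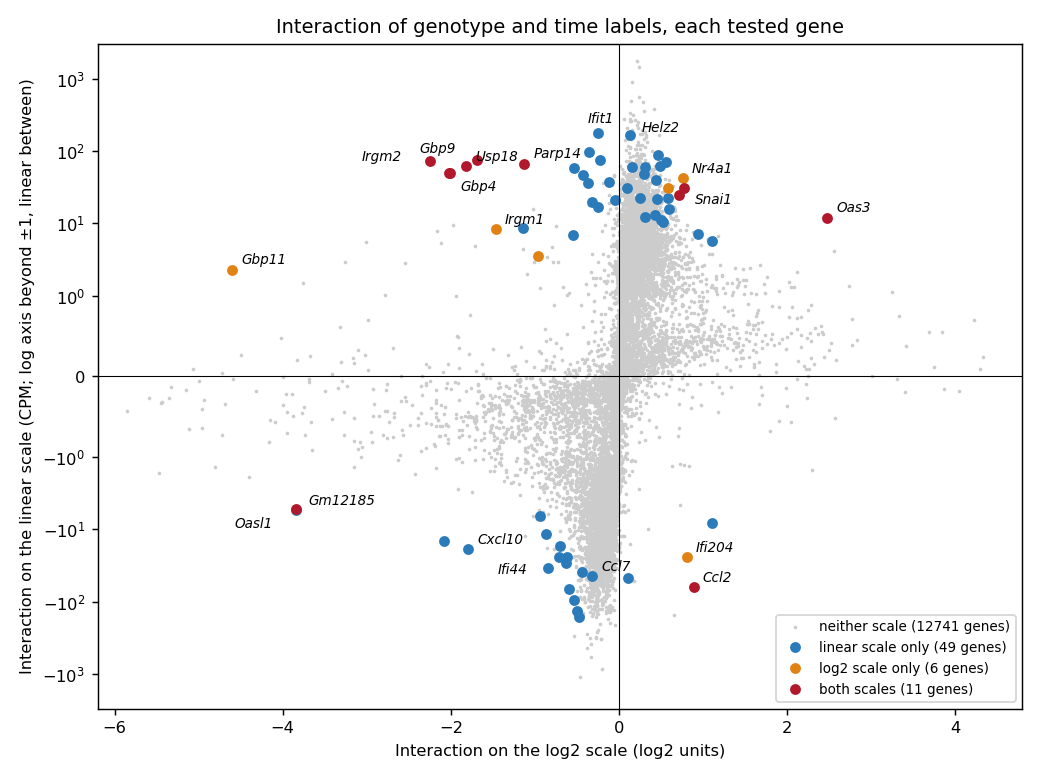
Interaction of every tested gene on the log2 scale (x axis, log2 units) and on the linear scale (y axis, CPM, a log axis beyond ±1 and linear between). Grey points are the 12741 genes called on neither scale, blue points the 49 called on the linear scale alone, orange points the 6 called on the log2 scale alone and red points the 11 called on both. Gbp9, Gbp4, Irgm2, Usp18 and Parp14 lie at the upper left, negative on the log2 scale and positive in CPM, and Ccl2 lies at the lower right.

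The genes called with opposite signs were Gbp9, Gbp4, Irgm2, Igtp, Usp18 and Parp14, negative on the log2 scale and positive in CPM, and Ccl2, the reverse. The first 6 started from a higher level in KO 0 h than in WT 0 h. They gained fewer-fold from there to 2 h in the KO labels, and yet gained more CPM. The interferon lists held 11 of the 17 genes called on the log2 scale and 31 of the 60 called on the linear scale. Of their 127 tested members, 2 were positive and 9 negative on the log2 scale, against backgrounds of 0.0547% and 0.0781%. On the linear scale 27 were positive (21.3%) and 4 negative (3.15%), against 0.312% and 0.156%. The same background shares hold for the counts of each list below. These lists were chosen with earlier results of the same samples known, so the counts are a description. The pairing of a negative log2 value with a positive CPM value, called or not, was found in 39 of the 127 (30.7%) and in 530 of all 12807 genes (4.14%). Such a pairing needs KO 0 h and WT 2 h to depart from WT 0 h in the same direction, and the shares were not matched for this.

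The interferon-induced GTPases were the list with the lowest median interaction on the log2 scale. The guanylate-binding proteins (Gbp) and the immunity-related GTPases (Irgm1, Irgm2, Igtp) act against bacteria and parasites in vacuoles. Of 16 tested members, 0 were called positive and 6 negative on the log2 scale, and 4 were called positive and 0 negative in CPM. All 16 log2 values were below 0, against 51.1% over all tested genes. Their median was -1.83, or -1.69 without Tgtp2, which had no read in WT 0 h. In the alternative fits 15 to 17 of 16 to 17 tested members were below 0. Reads that map to several places are not in the gene counts, so the values of near-identical copies (Gbp, Irgm, Ifit and Oas genes) are uncertain.

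Irgm2 stood at 0.782 and 0.393 CPM in WT 0 h, at 123 and 138 CPM in KO 0 h, at 4.64 and 4.28 CPM in WT 2 h and at 209.5 and 203 CPM in KO 2 h. The groups did not overlap, and both KO groups lay far above both WT groups. From 0 h to 2 h Irgm2 rose by 2.91 log2 units under the WT label and by 0.66 under the KO label, an interaction of -2.25 ± 0.32 (SE, adjusted p = 2.43e-04, edgeR). In CPM the same steps were 3.87 and 75.6, an interaction of 71.7 ± 10.3 CPM (adjusted p = 3.45e-04). The sum of the single changes would place KO 2 h at 135 CPM and their product at 992 CPM. The observed level was 1.53 times the sum and 0.208 times the product.

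Igtp, which lies next to Irgm2 on chromosome 11, followed the same order of groups. It stood at 0.733 and 0.442 CPM in WT 0 h, 68.8 and 76.7 in KO 0 h, 3.29 and 5.06 in WT 2 h, and 137 and 114 in KO 2 h. Its interaction was -2.02 ± 0.39 on the log2 scale (adjusted p = 0.0103, edgeR) and 49.5 ± 7.91 CPM (adjusted p = 0.00152). The log2 call ended without WT 0 h replicate 2 (-1.68, adjusted p = 0.152) or WT 2 h replicate 2 (-1.69, adjusted p = 0.0703), and the CPM call without KO 2 h replicate 1 (38.5 CPM, adjusted p = 0.0783) or by limma (49.1 CPM, 0.124). With a trend on GC content and length removed, the log2 value of Igtp was -2.01 and the adjusted p 0.159.

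Gbp9 had the opposite order of the middle groups, with WT 2 h above KO 0 h. It stood at 1.91 and 2.75 CPM in WT 0 h, 15.2 and 17.8 in KO 0 h, 75.0 and 74.2 in WT 2 h, and 167 and 159.6 in KO 2 h. The increase to 2 h was 4.998 log2 units under the WT label and 3.31 under the KO label, an interaction of -1.69 ± 0.20 (adjusted p = 6.15e-05, edgeR). In CPM the increase was 72.3 under WT and 147 under KO, an interaction of 74.8 ± 8.03 CPM (adjusted p = 1.03e-05). Gbp4 also had WT 2 h above KO 0 h, with 0.537 and 0.540 CPM in WT 0 h, 7.67 and 8.76 in KO 0 h, 21.9 and 20.8 in WT 2 h, and 86.1 and 72.2 in KO 2 h. The interaction of Gbp4 was -2.01 ± 0.34 on the log2 scale (adjusted p = 0.0024) and 50.3 ± 4.34 CPM (adjusted p = 3.01e-07). Its level in KO 2 h was 2.74 times the sum and 0.245 times the product of the single changes.

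Irgm1 was called on the log2 scale alone. It stood at 22.9 and 23.2 CPM in WT 0 h, 376 and 384 in KO 0 h, 75.7 and 71.8 in WT 2 h, and 469 and 409 in KO 2 h. The KO groups were close to each other, and the change to 2 h was 1.68 log2 units under the WT label against 0.21 under the KO label. The interaction of -1.47 ± 0.12 had the smallest adjusted p of the 17 genes (2.39e-07, edgeR). In CPM the steps were 50.7 under WT and 59.0 under KO, and their difference was 8.27 ± 22.1 CPM (adjusted p = 0.924). KO 2 h lay at 1.02 times the sum of the single changes, which was 431 CPM, and at 0.361 times the product of 1215 CPM. Without KO 2 h replicate 1 the CPM value of Irgm1 was -16.4.

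The remaining GTPases were lower expressed or moved less. Gbp11 had 0 and 1 read in WT 0 h, then 2.04 and 2.14 CPM in KO 0 h, 2.91 and 2.06 in WT 2 h, and 7.45 and 6.16 in KO 2 h. Its log2 interaction of -4.61 (SE 1.54, adjusted p = 0.0225, edgeR) rests on that single read and measures no size. Gbp11 was not called without WT 0 h replicate 1 (adjusted p = 0.285), WT 0 h replicate 2 (0.103) or WT 2 h replicate 1 (0.21), and its CPM value was 2.29 ± 0.98 (adjusted p = 0.332). Gbp7 had a log2 interaction of -1.98 (adjusted p = 0.0822), Gbp3 of -1.11 (0.275) and Gbp10 of -3.01 (0.162), none of them called on either scale. Gbp2 stood at 3.52 and 3.78 CPM in WT 0 h, 29.5 and 40.7 in KO 0 h, 6.15 and 5.78 in WT 2 h, and 40.3 and 34.0 in KO 2 h. Its values were -0.62 on the log2 scale (adjusted p = 0.321) and -0.0546 ± 3.46 CPM (0.997), so KO 2 h lay at 0.999 times the sum. Irgq, a member of the family by sequence, was at -0.02 (adjusted p = 0.976).

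Gm12185 is a predicted gene that lay in no list, and it was negative on both scales. It stood at 0.391 and 0.0983 CPM in WT 0 h, which were 8 and 2 reads, 6.29 and 7.82 CPM in KO 0 h, 1.83 and 1.39 in WT 2 h, and 3.31 and 2.94 in KO 2 h. Under the WT label it increased by 2.69 log2 units to 2 h, and under the KO label the change was -1.16. The interaction was -3.85 ± 0.64 (adjusted p = 0.00239, edgeR), or -5.26 ± 1.05 CPM (adjusted p = 0.0162). KO 2 h lay under both the sum of 8.40 CPM and the product of 46.3 CPM. Gm12185 was not called on either scale without WT 2 h replicate 1 (-3.64, adjusted p = 0.0736, and -4.94 CPM, 0.0817), nor in CPM without KO 0 h replicate 2 (-4.54 CPM, 0.108) or by limma (-5.30 CPM, 0.0743).

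**Figure D2:**
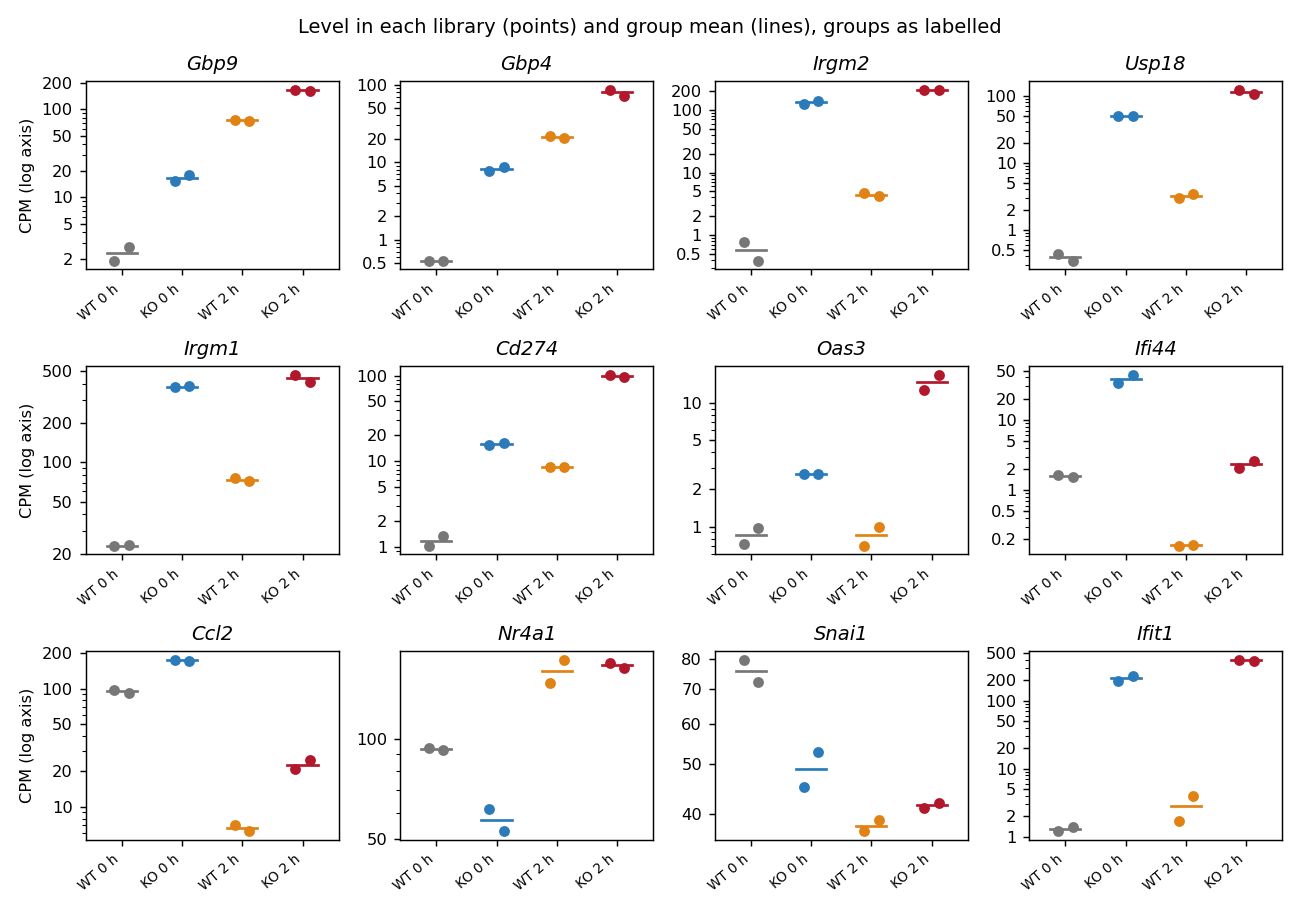
Level of 12 genes in each of the 8 libraries (points) with the group mean (lines), in CPM on log axes, for the groups as labelled. Gbp9 and Gbp4 are higher in WT 2 h than in KO 0 h, Irgm2, Usp18, Irgm1 and Ifit1 are higher in KO 0 h than in WT 2 h, and Oas3 stands at 12.7 and 16.9 CPM in KO 2 h and at 2.67 CPM or less elsewhere.

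In the pathway of ubiquitin-like modifiers, Trim ligases and Parp enzymes, 0 of 22 tested genes were called positive and 2 negative on the log2 scale, and 11 positive and 0 negative in CPM. Of the 22, 21 had a positive CPM value, against 50.1% of all tested genes. The median log2 value was 0.02. Parp14, an ADP-ribosyltransferase, stood at 4.35 and 2.998 CPM in WT 0 h, 88.4 and 95.1 in KO 0 h, 16.1 and 13.6 in WT 2 h, and 178 and 160.2 in KO 2 h. Its interaction was -1.13 ± 0.19 (adjusted p = 0.0082, edgeR) and 66.5 ± 9.12 CPM (adjusted p = 2.05e-04). Trim12c, a relative of the retroviral restriction factor TRIM5, stood at 7.48 and 6.54, 30.5 and 32.8, 22.7 and 19.95, and 52.4 and 46.4 CPM in the same order of groups. Its KO 2 h level was 1.08 times the sum, with a log2 interaction of -0.96 ± 0.18 (adjusted p = 0.0179) and 3.59 ± 3.47 CPM (0.715). Without WT 0 h replicate 2, the log2 values were -0.861 for Parp14 (adjusted p = 0.166) and -0.841 for Trim12c (0.222). Without WT 2 h replicate 1 they were -1.01 (0.191) and -0.873 (0.241).

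Others of this pathway were called in CPM but not on the log2 scale. Znfx1, a helicase that binds viral RNA, stood at 68.3 and 72.2 CPM in WT 0 h, 156 and 169 in KO 0 h, 79.3 and 85.5 in WT 2 h, and 267 and 259 in KO 2 h. It gained 12.1 CPM to 2 h under the WT label and 101 CPM under the KO label, an interaction of 88.4 ± 12.5 CPM (adjusted p = 2.83e-04), with 0.46 on the log2 scale (adjusted p = 0.12, edgeR). Daxx, a chaperone of histone H3.3 that is also an interferon-induced gene, had an interaction of 60.8 ± 7.54 CPM (adjusted p = 7.16e-05). For Dtx3l, a ubiquitin ligase, it was 57.4 ± 9.26 CPM (0.00152), and for its partner Parp9 37.0 ± 6.90 CPM (0.00821). Trim21, an antibody receptor in the cytosol, had 36.7 ± 4.90 CPM (1.73e-04). The log2 values were 0.15 for Daxx (0.614), -0.54 for Dtx3l (0.139), -0.12 for Parp9 (0.785) and -0.37 for Trim21 (0.376). With the GC and length trend removed, Parp10 moved from 22.8 to 15.3 CPM (adjusted p = 0.197) and Lgals3bp from 31.2 to 25.5 CPM (0.169), and neither was called. Helz2, a helicase that lay in no list, had 166 ± 19.98 CPM (4.99e-05), with levels of 22.5 and 23.05 in WT 0 h, 218 and 229 in KO 0 h, 33.5 and 41.5 in WT 2 h, and 432 and 375 in KO 2 h. The log2 value of Helz2 was 0.14 (adjusted p = 0.716), and it was not called in CPM by limma (adjusted p = 0.057).

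Usp18 removes the modifier ISG15 and blocks signalling from the interferon receptor. It stood at 0.440 and 0.344 CPM in WT 0 h, 50.3 and 50.5 in KO 0 h, 3.02 and 3.39 in WT 2 h, and 123 and 106 in KO 2 h. The increase to 2 h was 3.01 log2 units or 2.81 CPM under the WT label and 1.19 log2 units or 64.6 CPM under the KO label. The interaction was -1.82 ± 0.38 (adjusted p = 0.0179, edgeR) and 61.7 ± 5.82 CPM (adjusted p = 1.24e-06). The log2 call of Usp18 ended without either WT 0 h library (-1.98 and -1.63, adjusted p = 0.104 and 0.239) or either WT 2 h library (-1.91 and -1.74, adjusted p = 0.107 and 0.0628), while the CPM call stood in all 17 alternatives.

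Among the 34 tested sensors and signalling genes, which include Usp18, 1 was called positive and 1 negative on the log2 scale, and 4 positive and 0 negative in CPM. Stat2, part of the complex that binds ISRE, stood at 14.7 and 14.6 CPM in WT 0 h, 216 and 230.2 in KO 0 h, 27.4 and 28.5 in WT 2 h, and 352 and 312 in KO 2 h. Its interaction was 95.5 ± 15.3 CPM (adjusted p = 0.00145), with -0.36 on the log2 scale (adjusted p = 0.284, edgeR). Stat2 was not called in CPM without KO 2 h replicate 1 (78.8 CPM, adjusted p = 0.0665) or by limma (95.3 CPM, 0.122). Irf9, the DNA-binding part of the same complex, gave -0.75 (adjusted p = 0.0783) and 9.12 CPM (0.49), and was called on neither scale. The sensor gene Ddx58, which encodes RIG-I, gave -0.35 (0.356) and 18.0 CPM (0.58), and Irf7, a driver of interferon production, 0.65 (0.487) and 6.25 CPM (0.105).

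Ifi204, a DNA sensor, was called on the log2 scale alone and in the positive direction. It stood at 55.6 and 51.7 CPM in WT 0 h, 178 and 197 in KO 0 h, 22.7 and 20.2 in WT 2 h, and 137 and 124 in KO 2 h. The groups did not overlap, and the level was lower at 2 h than at 0 h under both genotype labels. The change to 2 h was -1.32 log2 units under WT and -0.52 under KO, an interaction of 0.81 ± 0.13 (adjusted p = 0.00645, edgeR). In CPM it was -24.3 ± 9.88 (adjusted p = 0.315). Without WT 2 h replicate 2 the log2 value of Ifi204 was 0.721 (adjusted p = 0.0628). After scaling each chromosome or removing the GC and length trend, its CPM value was 0.550 and 1.19.

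Of 34 tested antiviral effectors, 1 was called positive and 0 negative on the log2 scale, and 8 positive and 4 negative in CPM. Their median log2 value was -0.31. Ifit1 binds foreign RNA at its cap. It stood at 1.22 and 1.38 CPM in WT 0 h, 196 and 229 in KO 0 h, 1.73 and 3.95 in WT 2 h, and 396 and 380.1 in KO 2 h. The WT 2 h libraries lay just above WT 0 h, and KO 2 h lay above KO 0 h. The change to 2 h was 1.52 CPM under WT and 176 CPM under KO, an interaction of 174 ± 24.3 CPM (adjusted p = 9.10e-04). The log2 interaction of Ifit1 was -0.25 ± 0.35 (adjusted p = 0.808, edgeR) and was negative in 8 of the 16 library combinations.

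The 2′-5′ oligoadenylate synthetases, which activate RNase L, did not move as a block. Oas3 stood at 0.733 and 0.983 CPM in WT 0 h, 2.65 and 2.67 in KO 0 h, 0.702 and 1.0004 in WT 2 h, and 12.7 and 16.9 in KO 2 h. The WT groups overlapped, and KO 2 h lay 5.57 times above the product of the single changes and 5.54 times above their sum. Oas3 was positive on both scales, at 2.48 ± 0.47 (adjusted p = 0.0216, edgeR) and 12.03 ± 1.45 CPM (4.99e-05). Oas1a was at 10.4 ± 1.35 CPM (1.37e-04) and Oas1b at 17.0 ± 2.44 CPM (3.30e-04), both called. Oasl1 was at -5.38 ± 0.92 CPM (0.00312), also called. Oasl2 stood at 1.12 and 1.13, 39.1 and 43.9, 1.24 and 2.28, and 31.9 and 27.0 CPM in the order WT 0 h, KO 0 h, WT 2 h, KO 2 h, with -1.12 on the log2 scale (0.213) and -12.5 CPM (0.105), not called. On the log2 scale Oas3 was not called without WT 0 h replicate 2 (2.28, adjusted p = 0.239), WT 2 h replicate 1 (2.23, 0.297) or WT 2 h replicate 2 (2.74, 0.0587), nor with the GC and length trend removed (2.35, 0.0505). In CPM it was not called by limma (12.1 CPM, 0.0518).

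The 4 effectors called negative in CPM (Ifi44, Slfn9, Slfn8 and Oasl1) stood lower in KO 2 h than in KO 0 h. Ifi44, an interferon-induced protein of the cytosol, stood at 1.66 and 1.52 CPM in WT 0 h, 33.3 and 43.7 in KO 0 h, 0.162 and 0.167 in WT 2 h, which were 3 reads each, and 2.07 and 2.59 in KO 2 h. The interaction was -34.7 ± 2.70 CPM (adjusted p = 6.47e-08), and on the log2 scale -0.84 ± 0.67 (adjusted p = 0.667, edgeR). Slfn9, of the Schlafen family, stood at 59.2 and 60.5, 156 and 183, 31.1 and 29.1, and 96.6 and 87.3 CPM in the same order of groups. Its interaction was -47.6 ± 8.87 CPM (0.00821) and 0.11 on the log2 scale (0.758), and it was not called without KO 0 h replicate 2 (-33.7 CPM, 0.106) or by limma (-47.9 CPM, 0.189). With library size alone as the scale, Slfn9 was at -38.2 CPM (0.0539). Slfn8 was at -14.6 ± 2.00 CPM (2.05e-04).

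Other effectors that are often used as markers of the response were not called, or in CPM alone. Bst2, which tethers budding virions, stood at 4.45 and 5.55 CPM in WT 0 h, 15.7 and 12.9 in KO 0 h, 20.7 and 24.1 in WT 2 h, and 53.5 and 49.1 in KO 2 h, with an interaction of 19.6 ± 3.48 CPM (adjusted p = 0.00473). Without WT 2 h replicate 1 or KO 2 h replicate 1, Bst2 was at 17.9 CPM (0.0747) and 17.4 CPM (0.13). Isg15, the modifier itself, stood at 4.45 and 5.16, 70.5 and 64.4, 3.51 and 3.61, and 74.1 and 70.9 CPM in the same order, with 0.54 on the log2 scale (adjusted p = 0.296, edgeR) and 6.28 ± 4.68 CPM (0.609). Both KO groups of Isg15 were high, and neither genotype label showed a step to 2 h larger than 5.04 CPM. Ifit3 gave -1.71 (0.122) and 4.89 CPM (0.49), Mx2 -1.02 (0.667) and 15.9 CPM (0.122), and Rsad2 1.56 (0.652) and 2.42 CPM (0.141). Mx2 had 4 and 0 reads in WT 0 h and Rsad2 had 2 and 2, so their log2 values have SEs of 1.02 and 1.29.

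Cd274, which encodes the checkpoint ligand PD-L1 and lay in no list, had the smallest adjusted p of all on the linear scale. It stood at 1.03 and 1.33 CPM in WT 0 h, 15.6 and 16.2 in KO 0 h, 8.63 and 8.67 in WT 2 h, and 103 and 96.7 in KO 2 h. The groups were well apart, with KO 2 h above all others. It gained 7.48 CPM to 2 h under the WT label and 83.7 CPM under the KO label, an interaction of 76.3 ± 4.77 CPM (adjusted p = 1.59e-09). In fold terms the steps were 2.87 and 2.65 log2 units, and their difference was -0.23 ± 0.24 (adjusted p = 0.722, edgeR). KO 2 h lay at 0.851 times the product of 117 CPM and at 4.26 times the sum of 23.4 CPM.

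**Figure D3:**
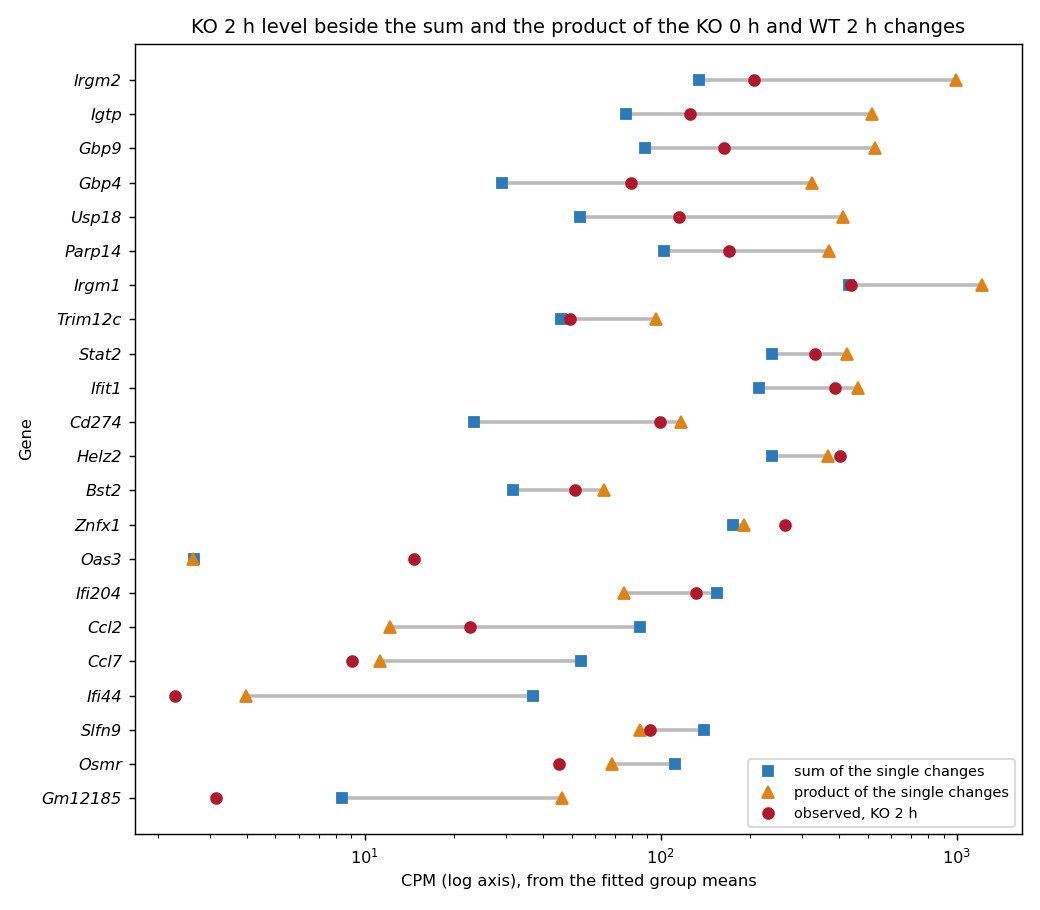
Fitted level of 22 genes in KO 2 h (red circles) beside the sum (blue squares) and the product (orange triangles) of the KO 0 h and WT 2 h changes from WT 0 h, in CPM on a log axis. KO 2 h lies on the sum for Irgm1 and Trim12c, close to the product for Cd274, and between both for Irgm2, Gbp9 and Usp18. It lies outside both for Oas3, Znfx1, Helz2, Osmr, Ccl7, Ifi44 and Gm12185.

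Over the interferon lists, KO 2 h lay between the sum and the product of the single changes for 45 of 126 genes with a product (35.4% of the 127), against 884 of 12734 over all tested genes (6.90% of the 12807). Within the GTPases it did so for 12 of 15. The sum and the product differ only where both KO 0 h and WT 2 h depart from WT 0 h. KO 0 h was called higher than WT 0 h for 94 of the 127 genes and for 339 of all 12807, so the shares do not compare like with like. The count also largely repeats that of opposite signs on the 2 scales. The median interaction over the 127 genes was -0.06 on the log2 scale and 4.89 CPM. The number of positive CPM calls among them was 13 without KO 2 h replicate 1, 16 with limma, and 22 to 39 in the other alternatives. Negative log2 calls numbered 4 without WT 0 h replicate 2, 5 without WT 2 h replicate 1, and 7 to 16 otherwise.

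Class I antigen presentation and the immunoproteasome had 0 calls among 21 tested genes on either scale in edgeR, with a median log2 value of 0.05. B2m, the light chain of class I molecules, stood at 323 and 312 CPM in WT 0 h, 391 and 455 in KO 0 h, 854 and 818 in WT 2 h, and 1010.4 and 943 in KO 2 h. It rose by 1.40 log2 units under the WT label and 1.21 under the KO label, an interaction of -0.19 ± 0.11 (adjusted p = 0.5) and 35.8 ± 53.7 CPM (0.833). The heavy chain gene H2-D1 gave -0.06 (0.869), and H2-K1 gave 0.06 (0.899). Tapbp, which loads peptides, gave 0.41 (0.184) and 44.3 CPM (0.0796), and Tap1, a subunit of the peptide transporter, 0.29 (0.474). Psmb8, an immunoproteasome subunit, stood at 0.552 and 2.67 CPM in the 2 KO 0 h libraries and gave -1.28 (0.573). These values do not show that the changes were equal.

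The chemokine and cytokine list had 1 positive and 0 negative calls among 21 tested genes on the log2 scale, and 0 positive and 4 negative in CPM. Ccl2, which attracts monocytes, stood at 98.1 and 91.9 CPM in WT 0 h, 175 and 172 in KO 0 h, 7.07 and 6.28 in WT 2 h, and 20.9 and 24.7 in KO 2 h. It fell to 2 h under both labels. The change was -3.83 log2 units or -88.3 CPM under WT, and -2.94 log2 units or -151 CPM under KO. The interaction was therefore positive on the log2 scale (0.89 ± 0.15, adjusted p = 0.00936, edgeR) and negative in CPM (-62.6 ± 8.38, adjusted p = 1.73e-04). Without WT 2 h replicate 1 or 2 the log2 value of Ccl2 was 0.968 (0.107) and 0.804 (0.0773). Ccl7, its neighbour on chromosome 11, stood at 38.5 and 34.7, 80.0 and 91.4, 5.45 and 4.17, and 8.87 and 9.25 CPM in the order WT 0 h, KO 0 h, WT 2 h, KO 2 h. Its interaction was -44.8 ± 4.85 CPM (1.03e-05) and -0.32 on the log2 scale (0.518).

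Cxcl10, which attracts T cells and is induced by interferons, was high in KO 0 h. It stood at 0.440 and 0.688 CPM in WT 0 h, 23.02 and 27.7 in KO 0 h, 0.108 and 0.889 in WT 2 h, and 6.71 and 6.02 in KO 2 h. The WT groups overlapped. The step to 2 h was -0.0703 CPM under WT and -18.9 CPM under KO, an interaction of -18.8 ± 2.505 CPM (adjusted p = 1.79e-04). On the log2 scale Cxcl10 was at -1.79 ± 0.62 (adjusted p = 0.289, edgeR), and without WT 2 h replicate 2 at 0.33. Tnfsf10, the death ligand TRAIL, was the fourth gene called in CPM, at -8.21 ± 1.24 (7.41e-04).

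Genes outside the interferon lists made up 6 of the 17 calls on the log2 scale and 29 of the 60 in CPM. This split follows which genes were put in the lists. Helz2 and Cd274, which are interferon-induced, count as outside, as does Gm12185. Among immediate early genes, 1 of 28 was called positive and 0 negative on the log2 scale, and 0 in CPM. Of the 28 log2 values 22 were above 0, with a median of 0.23, while over all tested genes 51.1% were below 0. The median transcript GC of this list was 54.2%, and over all genes of the highest GC bin (54.2 to 69.2%) the median log2 value was 0.19. The part of GC in the values of this list was not tested. Nr4a1, an orphan nuclear receptor induced by growth signals, stood at 93.7 and 92.6 CPM in WT 0 h, 61.4 and 52.9 in KO 0 h, 147 and 172 in WT 2 h, and 169 and 162 in KO 2 h. The 2 h groups overlapped, and the 0 h groups did not. The interaction was 0.76 ± 0.13 (adjusted p = 0.00855, edgeR) and 42.0 ± 11.0 CPM (0.0978), and without WT 2 h replicate 1 the log2 value was 0.634 (0.239). For the transcription factors Egr1 and Jun the log2 values were 0.35 (0.294) and 0.25 (0.381).

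Snai1, a repressor of epithelial genes, stood at 79.8 and 72.3 CPM in WT 0 h, 45.1 and 52.7 in KO 0 h, 37.1 and 38.9 in WT 2 h, and 41.1 and 42.0 in KO 2 h. The other 3 groups all lay under WT 0 h. Snai1 was positive on both scales, at 0.77 ± 0.14 (adjusted p = 0.0168, edgeR) and 30.8 ± 5.03 CPM (0.00171). The log2 call was lost without WT 0 h replicate 1 (0.722, adjusted p = 0.113), WT 2 h replicate 1 (0.723, 0.241) or WT 2 h replicate 2 (0.799, 0.0592), and with the GC and length trend removed (0.578, 0.15). The CPM call of Snai1 was lost by limma (30.7 CPM, 0.0563).

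Slc25a22, a mitochondrial glutamate carrier, was at 36.3 to 44.2 CPM in the first 3 groups and at 64.5 and 62.0 CPM in KO 2 h. Its interaction was 0.72 ± 0.14 (adjusted p = 0.0416, edgeR) and 24.8 ± 4.65 CPM (0.00846). Its log2 call was ended by 8 of 18 alternatives, namely library size as the scale (0.725, adjusted p = 0.0603), chromosome scaling (0.684, 0.0613), a replicate block (0.722, 0.0539), the GC and length trend (0.529, 0.147) and the 4 fits without a library that follow. By limma its CPM value was 24.7 (0.057). Without WT 2 h replicate 1 its values were 0.587 (0.587) and 20.9 CPM (0.128), without KO 2 h replicate 1 0.677 (0.137) and 23.2 CPM (0.0786), and without WT 0 h replicate 1 or 2 0.736 (0.124) and 0.746 (0.142). Agrn, the proteoglycan agrin, stood at 163 and 167 CPM in WT 0 h, 195 and 186 in KO 0 h, 74.7 and 80.1 in WT 2 h, and 134 and 133 in KO 2 h. The interaction of Agrn was 0.58 ± 0.11 (adjusted p = 0.0201) and 30.7 ± 11.0 CPM (0.255). It was not called in 7 of 18 alternatives, with log2 values of 0.407 (0.0836) after the GC and length trend, 0.58 (0.0553) with a replicate block, and 0.518 (0.332), 0.582 (0.166), 0.626 (0.0838), 0.626 (0.0581) and 0.562 (0.0872) without WT 2 h replicate 1, WT 0 h replicate 2, WT 0 h replicate 1, WT 2 h replicate 2 and KO 2 h replicate 1.

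In CPM, the genes outside the interferon lists with large negative values were highest in KO 0 h. Osmr, a receptor subunit for oncostatin M, stood at 66.9 and 63.6 CPM in WT 0 h, 135 and 159 in KO 0 h, 31.7 and 29.3 in WT 2 h, and 51.0 and 39.4 in KO 2 h, an interaction of -66.5 ± 8.58 CPM (adjusted p = 1.37e-04). Has2, which makes hyaluronan, stood at 87.5 and 83.0, 118 and 139, 42.3 and 41.7, and 44.4 and 48.8 CPM in the same order, with -38.5 ± 7.36 CPM (0.0102). The cohesin subunit Smc3 was at -135 ± 29.0 CPM (0.0309), the condensin subunit Smc4 at -161 ± 31.8 CPM (0.0146) and the chromatin protein Dek at -95.0 ± 19.0 CPM (0.0163). Vasn, a TGF-beta binding membrane protein, was in the other direction at 71.5 ± 14.4 CPM (0.0166). Removing the GC and length trend moved Has2 to -25.3 CPM (0.0712), Smc3 to -92.5 (0.105), Smc4 to -95.5 (0.109), Dek to -54.9 (0.1249) and Vasn to 50.8 (0.0585), so that none of these 5 was called. In Dek, Smc4 and Smc3 the call was also lost without WT 0 h replicate 1, WT 0 h replicate 2, KO 0 h replicate 2 or WT 2 h replicate 1, where their values were -92.0 to -78.3, -155 to -138 and -140 to -112 CPM, and in Smc3 without KO 2 h replicate 1 (-136 CPM) or with a replicate block (-135 CPM, adjusted p = 0.0686). Has2 was not called without WT 0 h replicate 2, KO 0 h replicate 2 or WT 2 h replicate 1 (-34.6, -27.4 and -37.8 CPM), nor Vasn without WT 0 h replicate 1, WT 2 h replicate 1 or KO 2 h replicate 1 (68.0, 62.0 and 61.0 CPM). By limma on CPM none of these 6 was called, with adjusted p of 0.0684 for Osmr, 0.17 for Has2, 0.158 for Smc3, 0.122 for Smc4, 0.144 for Dek and 0.157 for Vasn.

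The GC content of transcripts moved with these calls. Over 4 equal bins of the genes by GC, from 29.6 to 44.6% up to 54.2 to 69.2%, the median log2 interaction was -0.17, -0.05, 0.06 and 0.19. Of the 20 negative calls in CPM, 16 lay in the bin of lowest GC, and of the 40 positive calls, 20 lay in the bin of highest GC. The library labelled KO 0 h replicate 2 departed from the gene means by 0.184 in the lowest bin and by -0.141 in the highest, and KO 0 h replicate 1 by 0.0672 and -0.0742. WT 2 h replicate 2 ran the other way, from -0.0832 to 0.0869. With the trend removed, 14 genes were called on the log2 scale, 12 of them among the 17, and 56 in CPM, 41 of them among the 60. Of the 19 genes lost in CPM, 4 were in the interferon lists (Lgals3bp, Parp10, Pml and Trex1). Among the interferon genes 9 negative log2 calls and 30 positive CPM calls were then made, against 9 and 27.

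**Figure D4:**
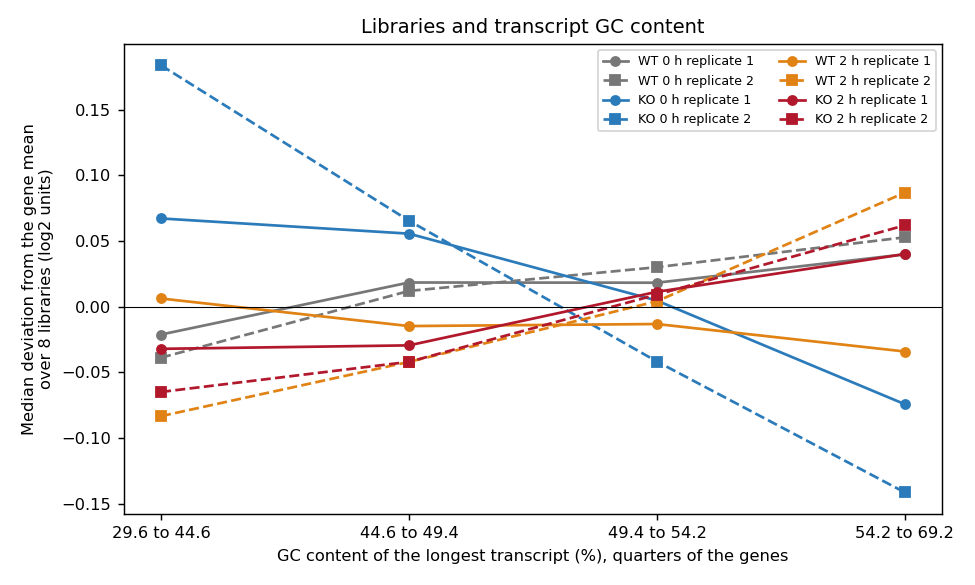
Median deviation of each library from the gene means over all 8 libraries (y axis, log2 units) in 4 equal bins of the genes by the GC content of the longest transcript (x axis, %), with a line for each library. The KO 0 h libraries (blue) fall with GC, from 0.184 to -0.141 in replicate 2 and from 0.0672 to -0.0742 in replicate 1, and WT 2 h replicate 2 rises from -0.0832 to 0.0869.

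The other lists carried few or no calls. No gene was called on either scale in edgeR among 17 NF-kB genes, 18 of the integrated stress and unfolded protein responses, 15 Nrf2 targets, 25 of sterol and fatty acid synthesis, 27 of DNA replication, 24 of mitosis, 31 of extracellular matrix, 24 contractile and TGF-beta responsive genes and 30 ribosomal proteins. Their medians lay between -0.13 and 0.13 on the log2 scale. Of 14 p53 targets, the death receptor gene Fas was called, at -6.63 ± 1.49 CPM (adjusted p = 0.0444). Of 24 genes of Zmynd11, histone H3.3 and H3K36 methylation, 1 was called positive and 1 negative in CPM, Daxx as above and H3f3a, which encodes H3.3, at -24.4 ± 5.11 CPM (0.0231). With the GC and length trend removed, Fas was at -5.42 CPM (0.156) and H3f3a at -19.2 CPM (0.06). Zmynd11 itself had an interaction of 0.05 ± 0.21 (adjusted p = 0.952, edgeR) and -12.5 ± 7.89 CPM (0.537).

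Marker lists of other cell types had 0 calls in edgeR on either scale. The 7 tested leukocyte markers all had negative log2 values, against 51.1% of all tested genes, with a median of -0.85. Their summed level was 36.6 to 37.2 CPM in WT 0 h, 46.8 and 73.6 in KO 0 h, 55.4 to 56.6 in WT 2 h, and 41.9 and 75.7 in KO 2 h. The high library of each KO group was replicate 2. The 11 fibroblast markers had a median of 0.11. Their part in the results was not tested, and in bulk RNA fewer cells of a type and less RNA per cell cannot be told apart.

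**Figure D5:**
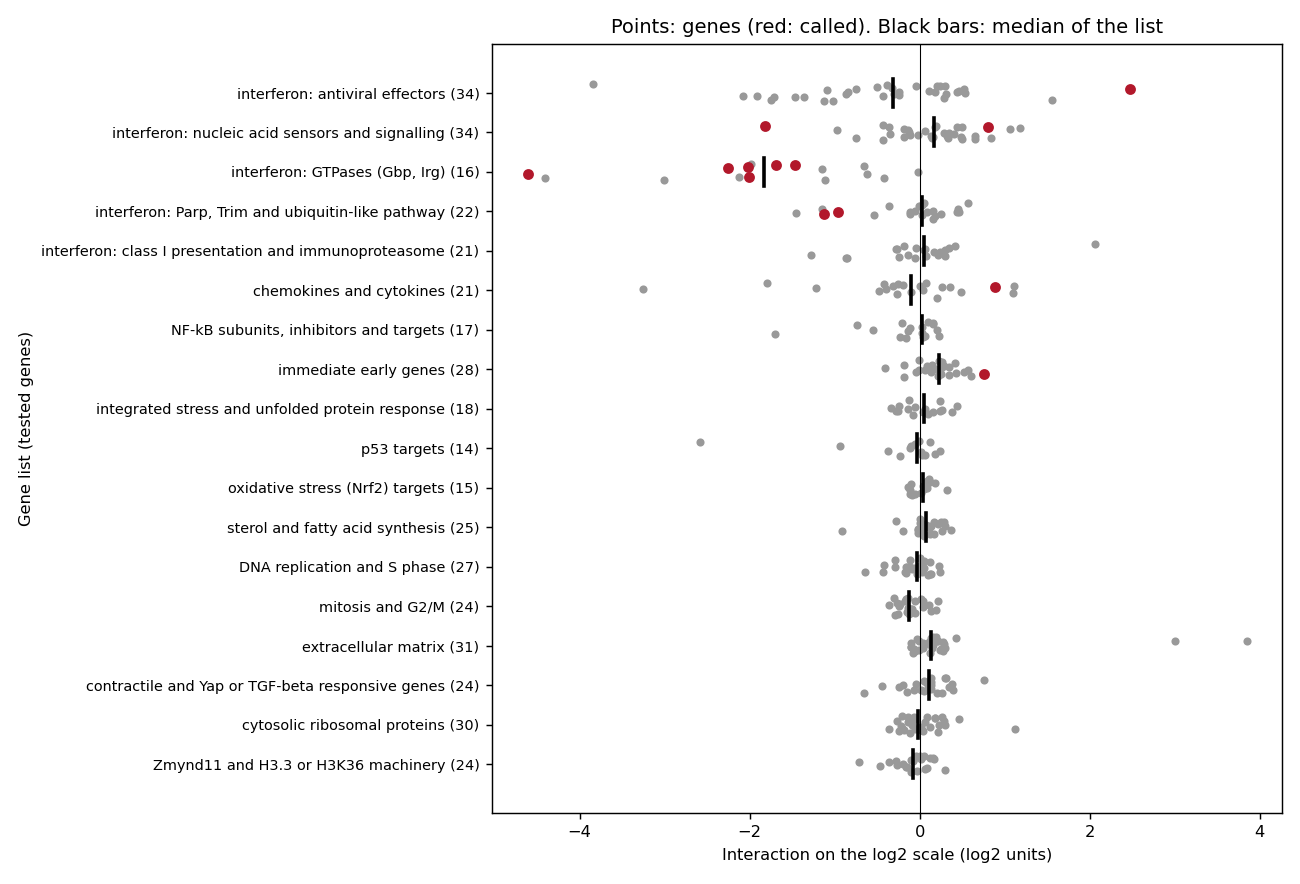
Interaction on the log2 scale of each tested gene (points, red where called) in 18 lists, with the number of tested genes in brackets and the median of each list as a black bar (x axis, log2 units). The GTPases lie to the left of 0 with a median of -1.83, while the medians of the other 17 lists lie between -0.31 and 0.23.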

How the data were processed

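RNA was measured in 8 libraries of NIH3T3 cells, grouped by their titles. For each library the authors deposited raw counts, a whole number of reads for each of 23304 gene symbols. STAR 2.5.2b, HTSeq, bcl2fastq 2.15 and the mouse build mm9 are named in the submitters' processing notes. Neither strand setting nor annotation is given in the sources used here, so reads of overlapping genes cannot be told apart. Summary lines that name no gene (36.9 to 43.2% of reads) were not used.

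The deposited counts were fitted in R 4.3.3 with edgeR 4.0.16, using a filter on low counts (minimum count 10, minimum total 15), TMM scaling, and a robust quasi-likelihood model with 1 coefficient for each of the 4 groups (4 residual degrees of freedom). This model shares the spread across genes, with a median of 18.12 prior degrees of freedom. The log2 interaction was tested in that model. The linear interaction was taken from the fitted group means in CPM, with a standard error by the delta method. Both were adjusted by Benjamini-Hochberg over 12807 genes and called below 0.05. The sum is KO 0 h plus WT 2 h minus WT 0 h, and the product is KO 0 h times WT 2 h divided by WT 0 h. The median SE was 0.157 on the log2 scale for the 11553 genes whose mean reached 1 CPM. On simulated counts the log2 test (12686 genes) found 57 of 67 genes with a 2-fold change and called 12 unchanged genes. The linear test (12672 genes) found 59 of 67 and called 9. With a 1.5-fold change, 36 of 67 and 29 of 67 were found. Changed genes were drawn from the better expressed ones, and the counts carried no GC trend or shift of single libraries within a group. The rates hold for such counts alone.

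The contrast, the gene lists and the genes named were chosen with earlier results of these data known. Named genes were the 12 largest log2 interactions in each direction among called genes with at least 1 CPM in a group, the 8 largest in CPM in each direction, both with the same sign in all 16 combinations of 1 library per group, preset interferon-induced genes, Zmynd11, and up to 4 called genes of each list. Other genes in the text were chosen after their values were seen. A gene that the rule names is not reported here. Alternatives were RLE scaling, library size alone, no low-count filter, at least 1 CPM in 2 libraries, a replicate block, no robust option, chromosome scaling, a prior count of 2, DESeq2 1.42.0 (log2 scale), limma 3.58.1 on CPM (linear scale), and leaving out each library. Removing a spline trend on GC content and length of the longest GENCODE transcript, found for 99.12% of tested genes, was added after the data were seen.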

Additional observations from a re-analysis of the deposited data

Results flagged for a closer look

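In each of the following results, the change from 0 h to 2 h differed between the genotype labels by a test of the difference itself at an adjusted p below 0.05. On the log2 scale this was the interaction in edgeR's quasi-likelihood test, and on the linear scale the test of the fitted group means in CPM with delta-method standard errors. A gene given for a single scale did not pass on the other. Groups of 2 libraries are too small for a test of single outlying samples. No explanation was tested.

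On the log2 scale the immunity-related and guanylate-binding GTPases had values of -1.47 for Irgm1, -2.25 for Irgm2, -2.02 for Igtp, -1.69 for Gbp9, -2.01 for Gbp4 and -4.61 for Gbp11, the last resting on a single read in WT 0 h. Gm12185 was at -3.85, Usp18 at -1.82, Parp14 at -1.13 and Trim12c at -0.96. Positive values were 2.48 for Oas3, 0.81 for Ifi204, 0.89 for Ccl2, 0.76 for Nr4a1, 0.77 for Snai1, 0.58 for Agrn and 0.72 for Slc25a22.

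On the linear scale positive values among interferon-induced genes were 174 CPM for Ifit1, 166 for Helz2, 95.5 for Stat2, 88.4 for Znfx1, 76.3 for Cd274, 74.8 for Gbp9, 71.7 for Irgm2, 66.5 for Parp14, 61.7 for Usp18, 50.3 for Gbp4, 49.5 for Igtp, 19.6 for Bst2 and 12.03 for Oas3. Vasn was at 71.5 CPM, Snai1 at 30.8 and Slc25a22 at 24.8. Negative values were -34.7 CPM for Ifi44, -47.6 for Slfn9, -5.26 for Gm12185, -18.8 for Cxcl10, -44.8 for Ccl7, -62.6 for Ccl2, -66.5 for Osmr, -38.5 for Has2, -95.0 for Dek, -135 for Smc3 and -161 for Smc4.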

How the results depend on the processing

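With groups of 2, single libraries decided how many genes were called. For the interaction on the log2 scale there were 17 calls, and for the interaction on the linear scale 60. Without a filter on low counts, 113 (56 positive, 57 negative) and 174 (108 and 66) of 19556 genes were called. DESeq2, which gave an adjusted p for 6795 genes, called 32 (16 and 16) on the log2 scale, 14 of them among the 17. On 12807 genes limma called 34 (23 and 11) in CPM, 27 of them among the 60. Leaving out each library in turn gave 6 to 91 calls on the log2 scale and 37 to 171 in CPM, each extreme with WT 2 h replicate 1 or KO 0 h replicate 1 left out (37 also without KO 2 h replicate 1). The lone library of a group was then assumed to vary like the others. Library size as the scale gave 16 and 70 calls, with the positive share in CPM at 75.7% against 66.7%. RLE scaling, the filter of 1 CPM, no robust option, chromosome scaling and the GC and length trend gave 14 to 17 and 56 to 68. No shared shift of same-numbered replicates was seen: deviations of same-numbered libraries correlated at -0.0944 to 0.0385 over 6 pairs of groups. Whether the samples were paired by culture or day is not labelled, and such correlations cannot exclude it. With a replicate block there were 15 and 53 calls. Per-gene results were recomputed only for the genes of the naming rule. Of these, called under every alternative were Gbp4, Gbp9, Irgm1 and Irgm2 on the log2 scale, and Ccl2, Ccl7, Cd274, Cxcl10, Gbp4, Gbp9, Ifi44, Ifit1, Irgm2, Parp14, Usp18 and Znfx1 in CPM. Among those genes, the signs that turned were all of values not called in the reported fit, and the cause was not tested. Over the fits without a library, log2 values ran from -0.19 (KO 2 h replicate 2 left out, and -0.05 with WT 2 h replicate 1 left out) to 0.31 for Zmynd11, from -2.02 to 0.22 for Psmb8 (KO 0 h replicates), and, over the WT 2 h replicates, from -0.74 to 0.46 for Ifit1, from -2.64 to 0.33 for Cxcl10 and from -0.0232 to 0.29 for Helz2. With the GC and length trend removed they were 0.0176 for B2m and -0.0290 for Helz2. In CPM the fits without a library ran from -16.4 to 43.4 for Irgm1 and from -1.84 to 69.8 for B2m (lowest without KO 2 h replicate 1), from -1.83 to 0.265 for Psmb8 and from -5.01 to 5.44 for Gbp2 (without KO 0 h replicate 1 and 2). Ifi204 was at 0.550 with chromosome scaling and 1.19 with the GC and length trend removed. Gbp2 was at 0.279 with RLE scaling, 3.10 with library size, 0.0367 with the filter of 1 CPM, 0.109 with the replicate block, 4.73 with chromosome scaling and 2.66 with the GC and length trend removed. Depth limits genes with few reads in WT 0 h (Gbp11, Gm12185, Mx2, Rsad2). WT 0 h reads were also few for Usp18 (9 and 7), Gbp4 (11 and 11), Irgm2 (16 and 8) and Igtp (15 and 9). The fold changes of these genes under the WT label, and their products, rest on those reads. The 90th percentile of the SE was 0.437 on the log2 scale.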
